A study of Mus musculus with 2 samples.

Results

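The cells described here are 195 erythroid precursors of mouse fetal bone marrow, 129 in the WT library and 66 in the Bmx-CreER Wls library, out of 12356 kept cells and 12823 cell barcodes. A kept cell had more than 200 and fewer than 5000 detected genes and less than 30% of its counted molecules (unique molecular identifiers, UMIs) in mitochondrial genes. The members were chosen by measured UMIs of 7 genes: a cell was taken as an erythroid precursor if it held at least 3 summed UMIs of *Car1*, *Rhd*, *Rhag*, *Ermap* and *Cldn13*, and no UMI of *Itga2b* or *Itgb3*, the integrin chains of megakaryocytes. The WT members made up 2.25% of the 5736 kept cells of their library (Clopper-Pearson 95% interval 1.88 to 2.67), and the Bmx-CreER Wls members 0.997% of 6620 (0.772 to 1.27).

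Both libraries came from embryos at E18.5. They were made with the BD Rhapsody whole-transcriptome kit from femoral marrow digested with collagenase and depleted of cells carrying Ter119, Gr-1, B220 or CD3e. The paper used C57BL/6 mice for wild-type marrow and describes the background of all its animals as predominantly C57BL/6. WT embryos carried no named allele. Bmx-CreER Wls embryos carried floxed *Wls*, which encodes the carrier protein needed for Wnt secretion, and a tamoxifen-dependent Cre expressed in arterial endothelium, so that the precursors themselves were not the cells aimed at. Tamoxifen was given to the pregnant dams of this genotype. Whether the WT dams received it, and how many embryos were pooled, is not given in the sources used here. There was 1 library per genotype, so no test between genotypes was possible. All intervals below cover counting error only.

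Red cells arise from progenitors that GATA2, MYB and the KIT receptor keep dividing. As they commit, GATA1, KLF1, TAL1 and FOG1 (*Zfpm1*) take over, and the erythropoietin receptor keeps the cells alive. Haem enzymes and the spectrin-ankyrin membrane skeleton follow, and globin messages come to fill the cell only late. Ter119 appears on the more mature precursors, which the depletion step is meant to remove.

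The deposited tables held 22708005 UMIs (WT) and 24704991 UMIs (Bmx-CreER Wls). Members were deep cells, with a median of 9936 UMIs and 3544 genes in WT and 10392.5 UMIs and 3646 genes in Bmx-CreER Wls, while the other kept cells had medians of 3087 and 3047.5 UMIs. Levels are therefore given as UMIs per 1000000 UMIs of the class (CPM). The libraries shared 49 cell barcodes, of which 2 belonged to WT members and 0 to Bmx-CreER Wls members. *Wls* itself was at 54.7 CPM (26 UMIs, Poisson 95% interval 35.7 to 80.1) in *Cdh5* cells with arterial genes of the WT library and at 11.5 CPM (6 UMIs, 4.22 to 25.0) in those of the Bmx-CreER Wls library. Counts per gene do not show whether the floxed exon was lost. In the members *Wls* was barely seen, with 13 UMIs in WT and 4 in Bmx-CreER Wls.

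The share of cells with Y-linked UMIs differed between libraries and between cell types, so that each library held cells of more than 1 embryo. Cells were called by having at least 2 UMIs of Y-linked genes and none of *Xist*, the RNA that silences an X chromosome in females, or the reverse. In the WT library 57 of 67 called members were Y-linked (85.1%, 74.3 to 92.6), beside 71.6% of the called other cells. In the Bmx-CreER Wls library 20 of 39 called members were Y-linked (51.3%, 34.8 to 67.6), beside 0.883% of the 1133 called chondrocytes (0.424 to 1.62). Blood progenitors of that library resembled the members in this respect, at 54.2% (39.2 to 68.6). Members and cartilage of the Bmx-CreER Wls library thus differed in this share. The part of sex and embryo in the results below was not tested beyond the values given for Y-linked members.

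**Figure D1:**
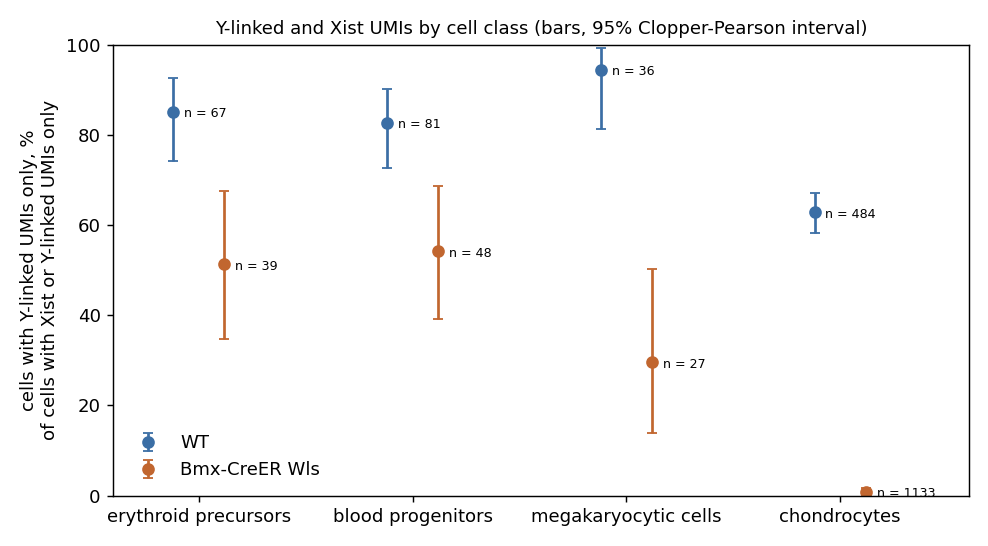
Share of cells with Y-linked UMIs only, in percent of cells with either Y-linked or *Xist* UMIs only, for 4 cell classes in each library (points, share; bars, 95% Clopper-Pearson interval; n, cells called). In the Bmx-CreER Wls library erythroid precursors sit at 51.3% and chondrocytes at 0.883%, while in WT the values are 85.1% and 62.8%.

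The lower share of members in the Bmx-CreER Wls library has to be read beside the make-up of each library. Chondrocytes took 40.8% of the kept WT cells and 60.7% of the kept Bmx-CreER Wls cells. Among cells with a UMI of *Ptprc*, the pan-leukocyte gene CD45, or in the precursor class, members were 28.8% of 448 cells in WT (24.6 to 33.2) and 21.9% of 301 cells in Bmx-CreER Wls (17.4 to 27.0). These last intervals overlapped. Of the 5617 WT and 6459 Bmx-CreER Wls cells with at least 1000 UMIs (119 and 161 were left out), each thinned to 1000, 134 (2.39%) and 78 (1.21%) met the rule once its minimum was lowered to 1 UMI of the 5 genes. Fewer precursors in the marrow and a different mix of released cells cannot be told apart with 1 library each.

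The 5 genes of the rule encode carbonic anhydrase 1 (*Car1*), the Rh blood group proteins (*Rhd*, *Rhag*), an erythroid membrane-associated protein (*Ermap*) and a claudin of mouse erythroid cells (*Cldn13*). *Ermap* was seen in 120 of 129 WT and 57 of 66 Bmx-CreER Wls members, *Rhag* in 109 and 47, *Rhd* in 76 and 28, *Car1* in 61 and 42, and *Cldn13* in 52 and 10. The median member held 9 (WT) or 8 (Bmx-CreER Wls) of these UMIs, from 3 of the 5 genes in either library. These values chose the members and are a description. Just outside the threshold were 19 WT and 15 Bmx-CreER Wls cells with 2 such UMIs and without the integrins. They had *Klf1* at 68.8 and 37.9 CPM (7 and 3 UMIs). Just inside it, the 5 WT and 7 Bmx-CreER Wls members with 3 such UMIs had *Klf1* at 90.5 and 103 CPM (3 and 7 UMIs). These counts are too few to compare the 2 sides of the cut. Members with 6 or more had *Klf1* at 297 and 281 CPM (333 and 140 UMIs). Cells just outside the cut thus held *Klf1* too, at a lower level than the members with many marker UMIs. A further 23 WT and 9 Bmx-CreER Wls cells met the sum but held *Itga2b* or *Itgb3* and were left out, with *Klf1* at 185 and 69.3 CPM.

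Outside the rule, and among genes with at least 100 UMIs in members of each library, the 20 that stood highest over the other kept cells in both libraries (the leading genes) included the erythroid regulators *Klf1*, *Epor* and *Gata1* and the metallothioneins *Mt1* and *Mt2*. Some genes with fewer UMIs had ratios as high and are given further on. The bases before the annotated transcription starts of *Klf1*, *Epor* and *Gata1* are shown because these messages mark the class beyond the rule. They were read from the RefSeq promoter table (GRCm38.p6) as the 250 bases upstream of the start, written 5′ to 3′ on the gene's strand. Capitals mark GATAA or its reverse complement TTATC, the core that GATA factors bind, and CACCC or GGGTG, the core that KLF factors bind.
Klf1, chr8:84901732-84901981 (plus strand): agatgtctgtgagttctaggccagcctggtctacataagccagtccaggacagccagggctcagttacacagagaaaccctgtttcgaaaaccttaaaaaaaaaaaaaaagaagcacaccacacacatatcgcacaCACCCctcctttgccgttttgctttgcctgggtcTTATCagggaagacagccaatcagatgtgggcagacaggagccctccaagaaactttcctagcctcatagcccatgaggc
Epor, chr9:21963577-21963826 (minus strand): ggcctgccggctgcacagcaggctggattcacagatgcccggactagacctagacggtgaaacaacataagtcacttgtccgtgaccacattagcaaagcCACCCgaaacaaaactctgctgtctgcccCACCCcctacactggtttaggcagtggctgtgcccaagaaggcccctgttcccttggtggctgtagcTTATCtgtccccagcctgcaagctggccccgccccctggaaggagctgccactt
Gata1, chrX:7967911-7968160 (minus strand): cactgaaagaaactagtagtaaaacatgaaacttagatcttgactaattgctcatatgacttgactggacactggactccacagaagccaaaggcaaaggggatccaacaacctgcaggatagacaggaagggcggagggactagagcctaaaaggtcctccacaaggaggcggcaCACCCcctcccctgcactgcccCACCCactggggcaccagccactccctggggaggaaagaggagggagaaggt
At least 1 GATAA on either strand was present in a window of 25.5% of the 27025 genes in the table, and of 5 of the 18 leading genes that have one there. CACCC on either strand was present for 54.5% of all genes and for 13 of the 18. The *Gata1* window held no GATAA. A match describes letters and not a bound site, and the windows do not cover the enhancers of these genes.

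*Klf1*, the master activator of haem, membrane and globin genes, was at 285 CPM in WT members (367 UMIs, 257 to 316) and 247 CPM in Bmx-CreER Wls members (165 UMIs, 211 to 287). In the other cells it was at 5.24 and 2.74 CPM, so that members stood 54.3-fold and 90.1-fold higher. *Epor*, the erythropoietin receptor, was at 155 and 160 CPM, 28.1-fold and 52.7-fold over the others. *Gata1* was at 330 and 287 CPM, 26.2-fold and 36.6-fold over the others. With each cell thinned to 1000 UMIs, *Klf1* was seen in 22.5% of WT and 15.2% of Bmx-CreER Wls members, and in 0.0432% and 0.0509% of chondrocytes, which should lack it. Free RNA was thus far below the levels in members.

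The remaining leading genes fell into 4 kinds. Regulators were *Zfpm1* (229 and 265 CPM), *Bcl11a* (305 and 337), the repressor of fetal and embryonic globin genes, *Ikzf1* (438 and 476) and *Tal1* (177 and 190). Metal and haem metabolism was represented by *Mt2* (3278 and 4234.7 CPM), *Mt1* (1964.3 and 2521.9), *Cpox* (1774.1 and 1286.4), which makes protoporphyrinogen, and *Blvrb* (286 and 272), the biliverdin reductase of red cells. Acid-base, redox and one-carbon metabolism supplied *Car2* (2194.1 and 1612.5), *Gclm* (321 and 341), a subunit of the glutathione-making ligase, *Mthfd1* (389 and 380), a folate enzyme, and *Nadk2* (349 and 257), a mitochondrial NAD kinase. The others were *Mns1* (649 and 565), a gene otherwise known from cilia and sperm, *Pla2g12a* (296 and 266), *Tnfaip2* (358 and 290), *Spn* (199 and 223), the leukocyte sialoglycoprotein CD43, and the long non-coding RNA *Gm15915* (171 and 259). Several of these were shared with neighbouring blood cells. *Ikzf1* was at 353 and 405 CPM and *Spn* at 197 and 236 CPM in blood progenitors, whereas *Mt2* was there at 99.2 and 79.1 CPM.

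**Figure D2:**
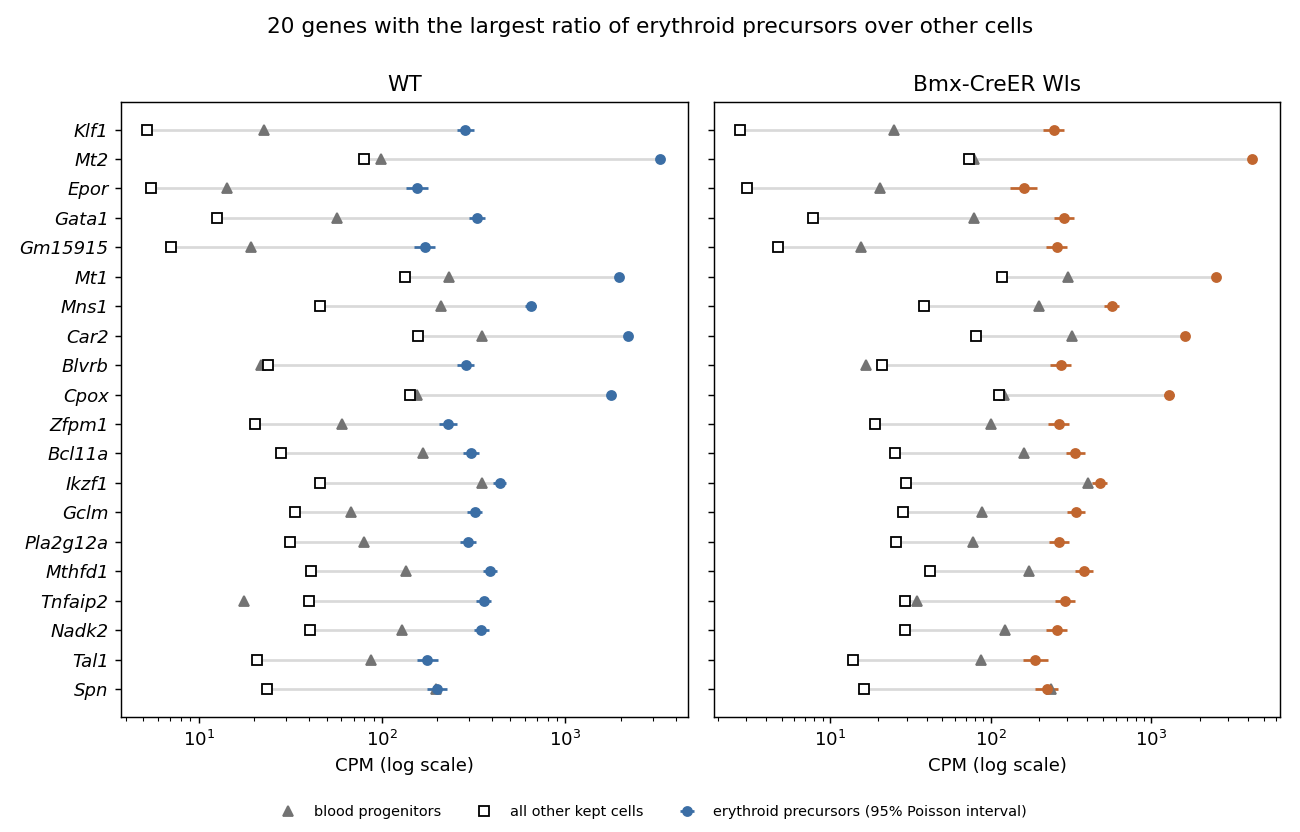
Levels of the 20 leading genes in CPM on a log axis, WT on the left and Bmx-CreER Wls on the right (circles, erythroid precursors with 95% Poisson intervals; triangles, blood progenitors; squares, all other kept cells). *Klf1*, at 285 and 247 CPM, lies far from both other groups, whereas *Ikzf1* and *Spn* lie close to the blood progenitors.

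Over all genes, 341 of 10879 tested (3.13%) were at least 4-fold higher in members in both libraries and 2269 (20.9%) at least 4-fold lower. In each library alone, 3.84% (WT) and 5.11% (Bmx-CreER Wls) of genes were at least 4-fold higher. The rule used this contrast, so these counts and the shares of lists below are descriptions. List counts at 4-fold are to be read beside the 3.13% higher and 20.9% lower of all genes. The minimum of 100 UMIs counted members and other cells together. A gene with hardly any UMI in members could thus pass only through the other cells, and could then only be called lower. Of the 20 listed erythroid transcription factors, 19 had at least 100 UMIs in each library, and 12 of these were at least 4-fold higher, with median ratios of 5.25 (WT) and 6.76 (Bmx-CreER Wls). *Gfi1b*, a repressor that restrains progenitor genes, was 34.2-fold and 40.1-fold higher and *Hemgn*, a target of GATA1, 43.9-fold and 40.1-fold. *Sox6*, a factor shared with cartilage, was the member of the list that was at least 4-fold lower, with 4 UMIs in WT and 1 in Bmx-CreER Wls.

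Early progenitor genes were unequal in the members. Of 14 early progenitor genes 6 were at least 4-fold lower than in other cells and 1, *Myb*, at least 4-fold higher. Over all genes these shares were 20.9% and 3.13%. The other WT cells held 20875 UMIs of this list and the WT members 1315, so the minimum was passed largely through the other cells. *Gata2* was at 182 and 272 CPM, *Myb* at 418 and 386, *Myc* at 285 and 238 and *Kit* at 193 and 182. By contrast *Flt3* had 0 and 1 UMIs, *Mecom* and *Mycn* had 0 in both libraries, and *Cd34* had 11 in both. A count of 0 allows up to 2.33 CPM in WT and 4.49 CPM in Bmx-CreER Wls. *Gata2*, *Myb*, *Myc* and *Kit* were thus detected in the members, whereas *Flt3*, *Mecom*, *Mycn* and *Cd34* had between 0 and 11 UMIs. *Runx1*, also of the list, was detected too. In the low to high groups described below, without mixed and basophil-marker members, it ranged from 46.0 to 84.3 CPM in WT. In Bmx-CreER Wls it ranged from 70.4 to 94.8 CPM. *Cd34* was at 685 and 688 CPM in blood progenitors, although that gene was used in choosing them.

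Set against the blood progenitors of the same library (154 WT and 104 Bmx-CreER Wls cells), 25 of 3163 genes (0.790%) were at least 4-fold higher in members in both libraries and 81 (2.56%) at least 4-fold lower. The rule took part in this contrast too. The 25 included *Ermap*, *Rhag* and *Car1* of the rule, *Tfr2*, the iron-sensing partner of the erythropoietin receptor (6.02-fold and 4.89-fold), *Aqp1*, the water channel of red cells (7.20 and 7.82), *Hebp1*, a haem-binding protein (10.8 and 5.70), *Atp1b2*, a sodium pump subunit (8.43 and 9.94) and *Col5a1*, a collagen chain (8.53 and 6.29). Of the 81, *Mpo*, *Elane*, *Lyz2* and *Serpinb1a* of the granulocyte and monocyte line had 0 UMIs in members of both libraries.

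The haem synthesis genes stood higher in members, unevenly along the pathway. Of 14 tested genes 5 were at least 4-fold higher in members, and the medians were 3.34 and 3.61. *Alad*, which joins the first intermediate, was 8.32-fold and 8.21-fold higher, *Urod* 5.39-fold and 5.25-fold, *Cpox* 12.5-fold and 11.4-fold, and *Fech*, which inserts the iron, 4.69-fold and 4.18-fold. *Alas2*, the erythroid form of the entry enzyme, had 0 UMIs in members of both libraries, and 2 and 1 UMIs among all barcodes of the tables. *Alas1*, the housekeeping form, had 14 and 8 UMIs. These 4 later enzymes thus stood higher in members, while neither form of the entry enzyme did in both libraries by 4-fold.

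The iron genes followed only in part, with 2 of 12 tested at least 4-fold higher and medians of 1.83 and 1.96. *Tfrc*, the transferrin receptor, was at 491 and 405 CPM, 3.95-fold and 2.78-fold over other cells. *Steap3*, the reductase that frees iron in the endosome, was 5.54-fold and 8.06-fold higher. The mitochondrial importer *Slc25a37* (mitoferrin) stood at 57.5 and 46.4 CPM, 2.07-fold and 1.77-fold higher. Among 11 antioxidant genes 3 were at least 4-fold higher, and *Prdx2*, the main peroxiredoxin of red cells, was at 838 and 691 CPM (2.77-fold and 2.61-fold).

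Of the red cell membrane, the parts were present at different degrees. Of 15 tested genes 4 were at least 4-fold higher and 1 lower, and 9 others of the list had too few UMIs to be tested. *Tspan33*, a tetraspanin, was at 139 and 114 CPM (58.3-fold and 53.9-fold), the spectrin *Sptb* at 76.9 and 79.3, *Ank1* at 73.8 and 55.3, and *Kel*, the Kell blood group protein, at 39.6 and 38.9. *Slc4a1*, the band 3 anion exchanger, had 0 and 1 UMIs, *Tmod1* 0 in both and *Epb4.2* 1 and 0. Parts of the membrane skeleton were thus detected with band 3, tropomodulin and protein 4.2 at or near 0. Among all barcodes of the libraries *Slc4a1* had 2 and 1 UMIs, *Epb4.2* 2 and 1 and *Tmod1* 15 and 20. The low counts of *Slc4a1* and *Epb4.2* were thus not particular to the members.

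Globin messages were close to absent. Members held 71 globin UMIs in WT and 44 in Bmx-CreER Wls, and 103 of 129 and 51 of 66 members had 0. The highest single member had 14 and 22. *Hba-a1* and *Hba-a2*, and likewise *Hbb-bs* and *Hbb-bt*, are near-identical copies between which reads cannot be divided with certainty, so the sum is given. The tables could count globin, since 2 barcodes in each library that failed the gene minimum carried 71.2 to 84.1% (WT) and 90.9 to 95.7% (Bmx-CreER Wls) of their UMIs in globin genes. Those barcodes held 127 to 132 and 24 to 48 genes. Among 11 tested genes of late maturation and organelle clearance 0 were at least 4-fold higher, and *Trim58* had 5 and 2 UMIs.

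Nucleolar genes stood higher in members than in other cells. Of 14 genes of the nucleolus and ribosome assembly 10 were at least 4-fold higher than in other cells, with medians of 4.27 and 4.87. *Ncl* was at 5637.4 and 5480.7 CPM and *Npm1* at 7182.5 and 6804.5 CPM. Much of this level was shared with blood progenitors, where *Ncl* was at 3718.6 and 3522.4 CPM and *Npm1* at 4811.9 and 4401.2 CPM. The summed nucleolar level was 17466.7 and 16798.0 CPM in members and 11762.5 and 10859.8 CPM in blood progenitors. Of 20 S phase genes 2 were at least 4-fold higher, with medians of 3.35 and 3.29, and of 19 tested G2 and M phase genes 0, with medians of 2.27 and 2.11. The summed G2 and M phase level was 4430.1 CPM (WT) and 4138.9 CPM (Bmx-CreER Wls) in members, below the 4627.0 and 4396.4 CPM of blood progenitors, whereas the S phase sums of 4893.7 and 4308.0 CPM stood above the 3838.8 and 3524.8 CPM there. *Cdc6*, which loads the replicative helicase, was 5.74-fold and 5.44-fold higher, and *Mki67* 2.20-fold and 2.0-fold. Of 10 cell cycle inhibitors and D cyclins 4 were at least 4-fold lower, beside 20.9% of all genes. The other WT cells held 64061 UMIs of this list and the WT members 702, so the minimum was passed largely through the other cells. *Cdkn1a* had 10 and 6 UMIs.

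Because *Wls* acts through Wnt, the 29 listed Wnt genes were counted. Of 28 tested, 16 were at least 4-fold lower in members and 0 higher, beside 20.9% and 3.13% of all genes. The other cells held 35608 UMIs of the list in WT and the members 967, so that the minimum of 100 UMIs was passed largely through the other cells. *Lef1*, *Tcf7* and *Tcf7l1*, 3 of the 4 nuclear partners of β-catenin listed, had 0 UMIs in both libraries, and *Tcf7l2* had 21 and 13. *Axin2*, a common target of the pathway, had 0 and 2. *Gsk3b* was at 122 and 108 CPM and *Ctnnb1* at 56.7 and 44.9 CPM. The 9 frizzled receptors had between 0 and 30 UMIs each in a library, too few to compare the genotypes gene by gene. The median ratio over the 28 genes was 0.127 and 0.168.

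**Figure D3:**
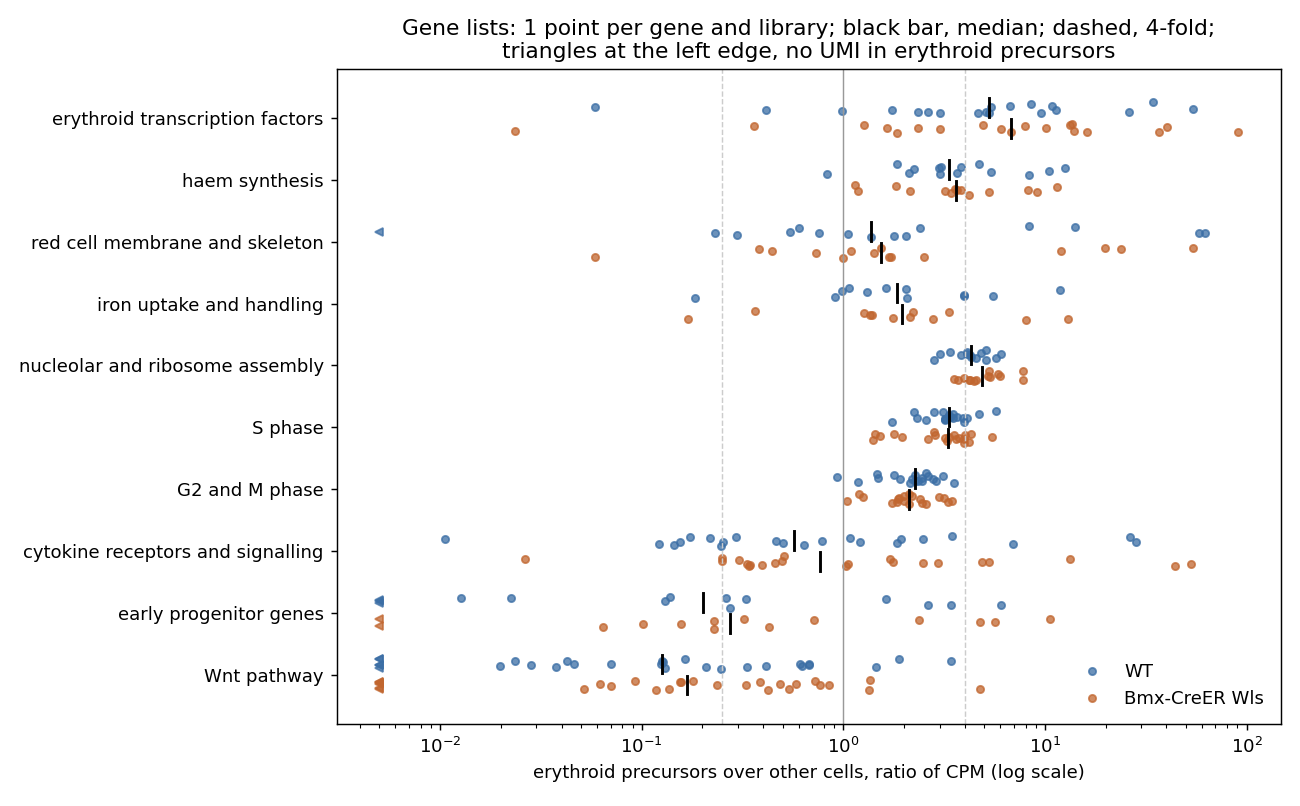
Ratio of the level in erythroid precursors to that in all other kept cells (log axis) for the tested genes of 10 lists, 1 point per gene and library, with the median as a black bar and 4-fold as dashed lines. Erythroid transcription factors (medians 5.25 and 6.76) and nucleolar genes (4.27 and 4.87) lie to the right, and Wnt genes (0.127 and 0.168) to the left.

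Markers of other cells were looked for in the same members. The 12 neutrophil and monocyte markers summed to 8 UMIs in WT and 7 in Bmx-CreER Wls, the 10 lymphoid markers to 3 and 1, the 10 megakaryocyte markers to 12 and 14, and the 10 macrophage markers to 16 and 7, with *C1qa*, *C1qb*, *C1qc*, *Cd163* and *Mrc1* at 0. The megakaryocyte list includes *Itga2b* and *Itgb3*, which the rule set to 0 in every member. Its low sum is therefore in part a result of how the members were chosen. The 6 osteoclast markers summed to 15 and 13. The endothelial genes *Cdh5*, *Cldn5*, *Emcn* and *Kdr* were at 0, whereas *Egfl7*, which stood at 110 and 117 CPM in blood progenitors, had 102 and 62 UMIs. Leaving the megakaryocyte list aside, most defining markers of other blood and vascular cells were thus at or near 0. There were 2 exceptions, described next.

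Among the members, 6 carried at least 20 summed UMIs of 14 stromal and cartilage genes, and these mixed members were 3 in each library. The highest WT cell had 1859 such UMIs among 18397, with 1201 of *Col1a1* and 251 of the bone gene *Ibsp*. The 3 Bmx-CreER Wls cells had 513, 493 and 266, with 337, 81 and 171 of *Col2a1*, the main collagen of cartilage. No other member had more than 9 (WT) or 18 (Bmx-CreER Wls). The Bmx-CreER Wls member with 18 was the shallowest of all, with 1721 UMIs. The other WT mixed members had 47 of 11925 and 41 of 13429 UMIs, which are smaller shares. As the limit was a count, this shallow member stayed in the values given without the mixed members. Where the stromal and cartilage RNA came from was not tested.

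The other exception concerned the label itself. A further 7 members, 3 in WT and 4 in Bmx-CreER Wls, held at least 10 UMIs of the basophil and mast cell list, up to 83 and 109 in a cell. They held 129 of the 136 and 150 of the 153 UMIs of that list found in members, mainly *Cpa3*, *Gzmb* and *Cma1*, which encode granule proteases. All their rule UMIs, 20 in WT and 19 in Bmx-CreER Wls, were *Car1*, and *Rhd*, *Rhag*, *Ermap* and *Cldn13* together had 0. *Klf1* had 0 and 1 UMIs and *Epor* 0 and 1 in them, whereas *Gata2* had 31 and 69. These cells met the rule but not the erythroid description. Without the 6 mixed members and these 7, the share of members was 2.15% in WT and 0.892% in Bmx-CreER Wls, and 355 genes were at least 4-fold higher in members of both libraries.

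To see how the members varied among themselves, they were ordered within each library by the share of their UMIs in 8 membrane genes, among them *Sptb*, *Ank1*, *Add2*, *Kel*, *Xk* and *Tspan33*, and divided into low, middle and high groups of 42 WT and 21 Bmx-CreER Wls cells, with the mixed members left out. This order was chosen after the globin levels were seen to be too low for the order first intended. It is a range and not a set of cell types. The groups had similar depth, with medians of 9503 to 10057 UMIs in WT and 9643 to 11985 in Bmx-CreER Wls. The order rested on few UMIs per cell. The low groups held 61 UMIs of the 8 genes in WT and 26 in Bmx-CreER Wls, and 7 and 8 of their cells had 0. Globin UMIs did not follow the order alike. They went from 5 in the low to 62 in the high group of WT, and from 24 to 12 in Bmx-CreER Wls. Of 1280 genes compared that had no part in the order, 765 moved in the same direction from low to high group in both libraries, 23 rose at least 1.5-fold in both and 37 fell at least 1.5-fold in both.

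The 10 genes that rose most included genes of haem synthesis, redox defence and gas transport. *Hebp1* went from 54.6 to 203 CPM in WT (3.73-fold, 2.31 to 6.26) and from 46.4 to 330 CPM in Bmx-CreER Wls (7.11-fold, 3.53 to 16.2). *Car2* went from 1639.4 to 3186.2 and from 1087.2 to 2060.2 CPM, and *Epor* from 114 to 213 and from 97.9 to 198 CPM. Under another order, by a smaller set of 4 late genes, the high over low ratio of *Epor* was 1.38 (0.964 to 1.98) and 1.22 (0.764 to 1.98), so that both intervals included 1. The haem list as a whole was 1.70-fold (1.57 to 1.83) and 1.75-fold (1.54 to 1.99) higher in the high group. *Rhag*, *Minpp1*, *Blvrb*, *Prdx2*, *Fech*, *Cpox* and *Phf10* complete the 10 strongest, with ratios from 1.77 to 2.31 in WT and from 1.86 to 2.5 in Bmx-CreER Wls.

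The 10 genes that fell most included genes of the progenitor cytoskeleton and of leukocytes. *Vim*, the intermediate filament that red cells lose, went from 699 to 68.6 CPM in WT and from 1102.7 to 137 CPM in Bmx-CreER Wls. *Gata2* went from 310 to 106 and from 459 to 86.3 CPM, ratios of 0.343 (0.239 to 0.486) and 0.188 (0.105 to 0.318). Without the 7 basophil-marker members the *Gata2* ratios were 0.435 and 0.362, so that part of the fall in Bmx-CreER Wls lay in those cells. *Celf2*, *Igfbp4*, *Coro1a*, *Lmo4*, *Laptm5*, *Hspa1b*, *Zfp36* and *Ptprcap* complete the 10 that fell most. Leaving the 7 out moved *Lmo4* from 0.302 to 0.607 in WT and from 0.106 to 0.175 in Bmx-CreER Wls, and *Coro1a* from 0.217 to 0.463 in Bmx-CreER Wls. Of the 23 rising and 37 falling genes, 16 and 32 still passed 1.5-fold in both libraries without the 7, and all kept their direction.

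The regulators did not all follow the order. *Klf1* was higher in the high group, 1.52-fold (1.16 to 2.0) and 1.74-fold (1.13 to 2.72), whereas *Gata1* was at 322 and 348 CPM in the low and high groups of WT and at 304 and 269 CPM in those of Bmx-CreER Wls, with intervals of the ratio that include 1. *Myb* was at 0.661 of its low-group level in WT (0.529 to 0.824) and at 0.95 in Bmx-CreER Wls (0.693 to 1.30). The S phase list was 1.19-fold and 1.35-fold higher in the high group, while the G2 and M phase list stood at 0.962 and 1.10 and the nucleolar list at 0.984 and 1.07. *Mt2* went from 2316.5 to 4016.5 CPM and from 2174.5 to 5835.4 CPM. Without the 7 basophil-marker members the *Klf1* ratios were 1.47 (1.13 to 1.93) and 1.36 (0.893 to 2.09), so that in Bmx-CreER Wls the interval then included 1.

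**Figure D4:**
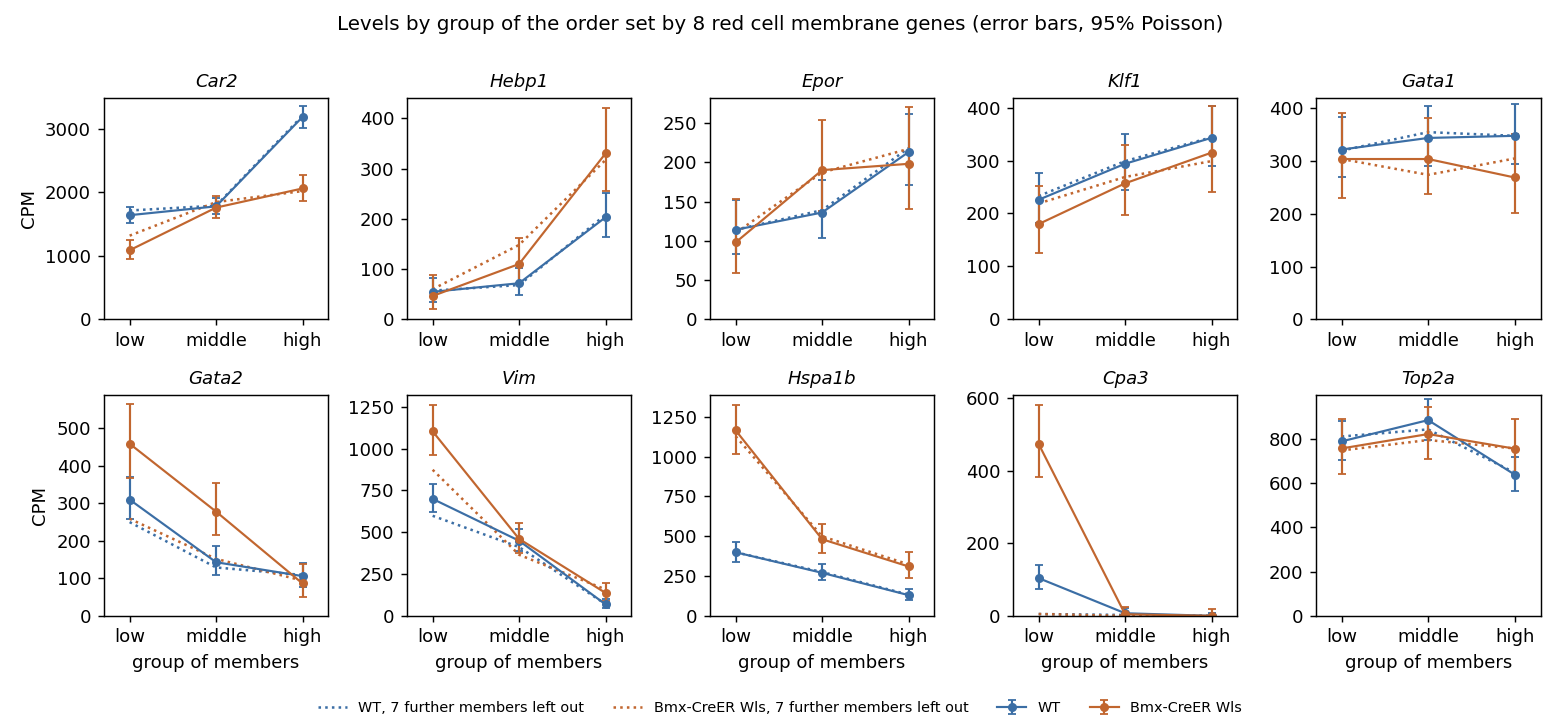
Levels of 10 genes in CPM in the low, middle and high groups of the membrane gene order (solid lines, 189 members without the 6 mixed ones, with 95% Poisson intervals; dotted lines, also without the 7 members with basophil and mast cell markers). *Car2*, *Hebp1*, *Epor* and *Klf1* rise and *Vim*, *Hspa1b* and *Gata2* fall in both libraries, and *Cpa3* falls to near 0 once the 7 members are left out.

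The members of the 2 genotypes were then set side by side, Bmx-CreER Wls over WT. Of 2070 genes with a total of 200 UMIs or more in members, 55 (2.66%) were at least 1.5-fold higher and 37 (1.79%) at least 1.5-fold lower. With TMM scaling of the totals the counts were 44 higher and 47 lower, so that the balance of directions depends on the scaling. Of the 55 higher genes 19 were also at least 1.5-fold higher in blood progenitors and 11 in all other cells, and of the 37 lower genes 2 and 5 were likewise lower. The median ratio was 0.972 in members and 0.918 over the same genes in the other cells. Several of the most unequal genes had many of their UMIs in the mixed members. *Col2a1* was at 45.0 and 980 CPM, *H19* at 76.9 and 862, *Igf2* at 42.7 and 443 and *Dlk1* at 36.5 and 269, while *Ibsp* was at 198 and 2.99, *Col1a1* at 1019.4 and 362 and *Col1a2* at 570 and 257. Of the 655 *Col2a1* UMIs in Bmx-CreER Wls members 66 were outside the 3 mixed cells, and of the 1313 *Col1a1* UMIs in WT members 78. Without the mixed members *Igf2* was at 32.1 and 145 CPM (4.51, 3.07 to 6.71), *Col2a1* at 2.33 (1.61 to 3.39) and *H19* at 1.80. The *Igf2* UMIs of Bmx-CreER Wls were unevenly spread. With the basophil-marker members also left out, 77 lay in the low group, 9 in the middle and 4 in the high. Among members with Y-linked UMIs only, the *Igf2* ratio was 1.65 (0.636 to 4.02), an interval that includes 1.

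**Figure D5:**
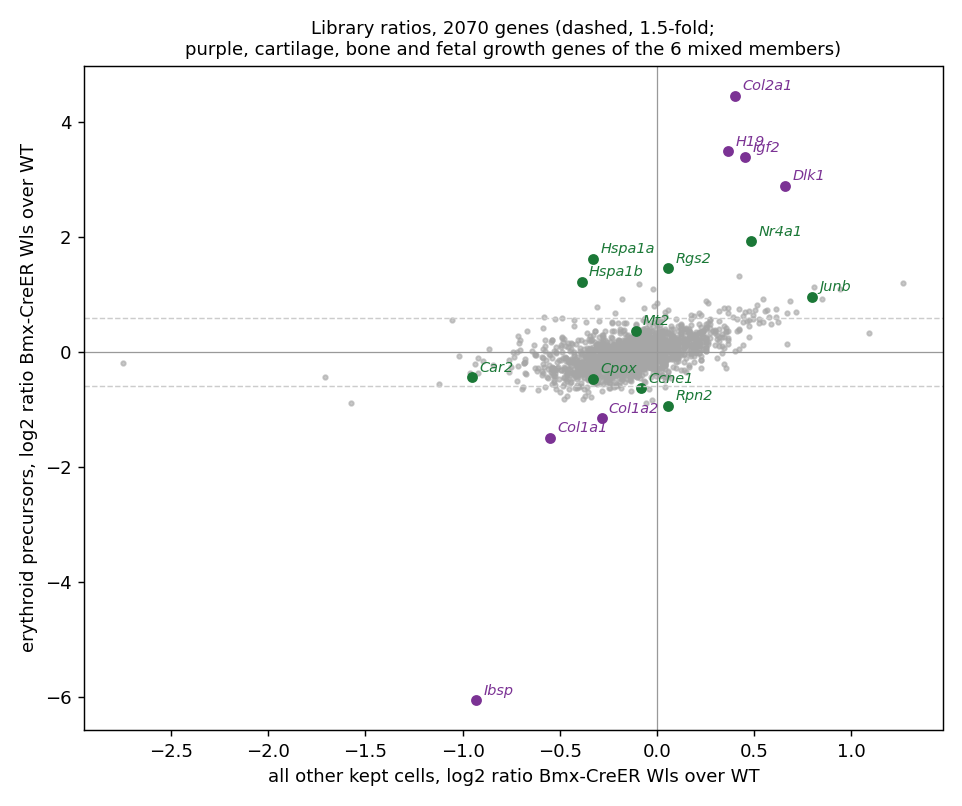
Log2 ratio of Bmx-CreER Wls over WT in erythroid precursors (vertical) against the same ratio in all other kept cells (horizontal) for 2070 genes, 1 point per gene, with 1.5-fold as dashed lines. Genes of the 6 mixed members (purple) take the extremes, and *Nr4a1*, *Hspa1a*, *Hspa1b* and *Rgs2* (green) stand above the cloud in the precursors.

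Without the 6 mixed members, 55 of 1982 genes (2.77%) were higher and 31 (1.56%) lower. Among these 1982 genes *Nr4a1*, *Hspa1a*, *Rgs2* and *Hspa1b* had the highest ratios. *Nr4a1*, an orphan nuclear receptor induced within minutes of stimulation, was at 79.6 CPM in WT and 317 CPM in Bmx-CreER Wls (3.98, 3.11 to 5.12). *Hspa1a* was at 71.5 and 226 CPM (3.16, 2.41 to 4.17) and *Hspa1b*, the neighbouring and near-identical HSP70 gene, at 264 and 638 CPM (2.41, 2.08 to 2.80). In the other cells these 3 ratios were 1.4, 0.797 and 0.765, and in blood progenitors 1.04, 1.18 and 0.866. *Egr1*, a further immediate-early gene, was at 2.49 over all members. *Fos*, *Jun*, *Jund*, *Fosb* and *Junb*, the subunits of AP-1, were also among the 55, with ratios of 1.82, 1.96, 1.86, 1.87 and 2.03. The cause of the difference was not tested.

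*Nr4a1* and *Hspa1b* were unequal among the members themselves. *Nr4a1* had a UMI in 23 of 129 WT and 22 of 66 Bmx-CreER Wls members, with at most 13 and 24 in a cell, and the median was 0 in both. Both *Nr4a1* and *Hspa1b* were lowest in the high group of either library, and in each group Bmx-CreER Wls stood above WT. *Nr4a1* was at 102, 103 and 35.5 CPM in the low, middle and high groups of WT and at 490, 299 and 167 CPM in those of Bmx-CreER Wls. Without the 7 basophil-marker members the WT levels of *Nr4a1* were 47.1, 97.2 and 36.3 CPM, and the high over low ratio went from 0.349 (0.179 to 0.644) to 0.770 (0.364 to 1.6), so that its interval then included 1. *Hspa1b* was at 399, 270 and 130 CPM against 1164.5, 481 and 310 CPM. *Rgs2*, a regulator of G protein signalling, was at 68.3 and 193 CPM, but 59 of its 85 WT UMIs and 58 of its 121 Bmx-CreER Wls UMIs lay in the 7 basophil-marker members. Without those, 49 of the 55 higher and 26 of the 31 lower genes still passed 1.5-fold, and all kept their direction. *Nr4a1*, of which those 7 held 25 WT and 41 Bmx-CreER Wls UMIs, then stood at 4.36 and *Rgs2* at 4.95 (3.09 to 8.15).

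Among members with Y-linked UMIs only (54 in WT, 20 in Bmx-CreER Wls), 52 of the 55 higher genes were above 1 and 40 passed 1.5-fold, and 31 of the 31 lower genes were below 1 and 22 passed 1.5-fold. *Nr4a1* stood at 2.97 there (1.98 to 4.45) and *Hspa1b* at 3.23 (2.65 to 3.94). *Rgs2* turned to 0.712 (0.365 to 1.30), *Fosb* stood at 0.985 (0.661 to 1.44) and *Fos* at 1.23 (0.888 to 1.68). Other high ratios, of *Gm9843* (2.25), *Gm10051* (2.22) and *Rpl10-ps3* (2.17), belong to ribosomal or unnamed copies that share reads with other genes and are uncertain. *Apoe* (2.34) and *Lmo4* (2.17) complete the 10 highest.

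Of the lower genes, *Rpn2*, a subunit that attaches sugars to new proteins, was at 165 and 84.4 CPM (0.512, 0.371 to 0.696), *Sec13*, a coat and nuclear pore protein, at 160 and 89.1, and *Mrps28*, of the mitochondrial ribosome, at 328 and 196. *Ccne1*, the cyclin that starts S phase, was at 154 and 87.5 CPM (0.567, 0.412 to 0.769). In the other cells the ratios of *Rpn2*, *Sec13* and *Ccne1* were 1.04, 0.962 and 0.944, but *Ccne1* stood at 0.549 in blood progenitors, much as in members. *Strn3*, *Myl6*, *Exosc3*, *Ccnb1ip1*, *Snrpd2* and *Ces2g* had ratios from 0.556 to 0.589, and *Ccnb1ip1* was lower still in the other cells, at 0.336.

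Of the erythroid lists compared between the libraries, haem synthesis was the lowest in Bmx-CreER Wls. Its summed level was 3236.8 CPM in WT and 2562.3 CPM in Bmx-CreER Wls members, a ratio of 0.792 (0.748 to 0.838), beside 0.848 (0.826 to 0.871) in the other cells. *Cpox* supplied most of these UMIs, with 1774.1 and 1286.4 CPM (0.725). *Car2* was likewise lower, at 0.735 in members, and at 0.517 in the other cells. The membrane list, which includes *Car2*, stood at 0.866 (0.823 to 0.910), beside 0.860 in the other cells. *Car2* held 2826 of its 4996 UMIs in WT members and 1078 of its 2245 in Bmx-CreER Wls members. The lower sum thus cannot be read as a fall of the other membrane genes, which were not summed apart. The S phase list stood at 0.880 (0.842 to 0.920), beside 0.926. The G2 and M phase list was at 0.934 (0.892 to 0.978) and the erythroid transcription factors at 0.993 (0.945 to 1.04). Without the 6 mixed members the G2 and M phase ratio was 0.960 (0.917 to 1.01), so that its interval included 1. Of the single regulators *Gata1* was at 0.870, *Klf1* at 0.866, *Tal1* at 1.07 and *Epor* at 1.03. *Gata2* was at 182 and 272 CPM (1.49), with 69 of its 182 Bmx-CreER Wls UMIs in the 4 basophil-marker members. Without those and the mixed members it was at 162 and 171 CPM (1.06, 0.825 to 1.35).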

How the data were processed

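The authors deposited 1 table of UMI counts per gene and cell for each library. Per the labels, reads were handled with bcl2fastq 2.19.1.403, UMI-tools 1.0.1, STAR 2.7.1a and featureCounts 1.6.4 (Subread) on mm10. No normalised values were used, and 0 columns fell outside the samples. Here, barcodes outside the limits on genes (above 200, below 5000) and mitochondrial UMIs (under 30%) were removed, 262 in WT and 205 in Bmx-CreER Wls. Doublets were not removed, and UMIs were summed over the cells of a class and scaled to 1000000. Members and gene lists were chosen with earlier results of these data known.

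With 1 library per genotype no test was made. Levels carry exact Poisson, shares Clopper-Pearson and ratios conditional binomial 95% intervals, which cover counting error only. The ratio interval was tried on simulated pooled Poisson counts, the model that it assumes. The simulation had no clumping of UMIs within cells, so it does not show how the interval covers these data. A floor of 3 counts stood for 0. Ratios of members to other cells were counted at 4-fold for genes with at least 100 UMIs over members and other cells of each library. Ratios between libraries were counted at 1.5-fold for genes with at least 200 UMIs in members of both libraries together. Among the other cells, blood progenitors had at least 1 *Ptprc* UMI, at least 3 of *Cd34*, *Kit* and *Myb*, and under 3 of 5 megakaryocyte genes. Chondrocytes had at least 10 UMIs of *Acan*, *Matn3*, *Col9a1* and *Col9a2*. Genes named were the rule genes, list members, the 20 with the largest smaller ratio over other cells (at least 100 UMIs in members of each library), the 10 largest and 10 smallest ratios between libraries, and the 10 that rose and 10 that fell most across the low to high groups. Values of some genes are not reported here. Groups by globin share were replaced by the membrane order after the data were seen. The mixed and basophil-marker members, and the genes named once they were left out, were also chosen after the data were seen. Sequences came from the RefSeq promoter table (GRCm38.p6), and the motif letters GATAA and CACCC were chosen after AGATAA (9.99% of windows) and CCNCNCCC (45.9%) had been searched. Alternatives were other rule thresholds, cell filters, normalisation, UMI minimums, comparison cells and orders. Computation used Python 3.11.15 with pandas 2.3.3, numpy 2.4.6 and scipy 1.17.1. Scrublet was run from scanpy 1.11.5, TMM factors came from edgeR 4.0.16 in R 4.3.3, and plots from matplotlib 3.10.9.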

Additional observations from a re-analysis of the deposited data

Results flagged for a closer look

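*Gm8420*, an unnamed gene model, moved in opposite directions against the other cells of the 2 libraries. In WT members it was at 14.0 CPM and in the other cells at 37.5 CPM, a ratio of 0.373. In Bmx-CreER Wls members it was at 171 CPM and in the other cells at 53.2 CPM, a ratio of 3.21. It had a UMI in 9 of 129 WT and 41 of 66 Bmx-CreER Wls members. Blood progenitors stood at 41.2 and 121 CPM. The difference between the libraries was not tested, since there was 1 library of each.

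Globin RNA appeared outside the kept cells. The barcodes removed by the gene minimum that had at least 50% of their UMIs in globin genes, 2 in each library, held 1632 globin UMIs in WT and 1073 in Bmx-CreER Wls. All members together held 71 and 44. These barcodes had 0 UMIs of the rule genes.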

How the results depend on the processing

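Of 152 values computed under alternatives, 132 stayed within the counting interval or 1.5 times the reported count and 20 moved beyond it. No ratio whose interval excluded 1 changed sign, but the globin ratio, whose interval included 1, turned in Y-linked members, and TMM scaling turned 55 higher and 37 lower genes into 44 and 47. With at least 2 rule UMIs the S phase list ratio was 0.836, and as a mean over cells 0.839. With at least 5, the Bmx-CreER Wls share was 0.770% and the G2 and M phase ratio 0.997. Blood progenitors in place of all other cells left 25 higher and 81 lower genes at 4-fold. The globin ratio between libraries rested on few UMIs, at 1.19 over all members, 4.30 as a mean over cells and 0.227 in Y-linked members. Of the 44 globin UMIs in Bmx-CreER Wls members, 22 lay in 1 cell of 1721 UMIs, the shallowest member. A minimum of 50 UMIs gave 315 higher and 289 lower genes at 1.5-fold, and of 1 UMI 3281 and 3054, as low counts scatter widely. Y-linked members alone, an alternative chosen after seeing the data, gave 25 and 22, with fewer cells and so fewer genes, and a G2 and M phase ratio of 0.777. Under the planned order by a smaller set of 4 late genes, the high over low ratio of *Car2* was 1.62 in WT and 1.10 in Bmx-CreER Wls, that of *Gata2* in Bmx-CreER Wls 0.469, and that of *Epor* 1.38 and 1.22, with intervals that include 1. Without the basophil-marker members, likewise chosen after seeing the data, *Gata2* was 0.362 and *Car2* 1.53 in Bmx-CreER Wls. Except where stated, the cause was not tested. The order by globin share was not run, because most members had 0 globin UMIs. Scrublet called 38 WT and 0 Bmx-CreER Wls cells and so did not work in the latter, and the 5% of cells with the highest scores were left out instead. No paired analysis was possible because each group has 1 library. With 66 members in Bmx-CreER Wls, genes with few UMIs cannot be compared closely.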

Other observations

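Energy and adhesion genes of the members were not described above. Of 21 tested hypoxia and glycolysis genes 1, *Hk1*, the hexokinase of red cells, was at least 4-fold higher than in other cells, at 291 and 322 CPM (5.86-fold and 7.51-fold), and 2 were at least 4-fold lower, beside 3.13% and 20.9% of all genes. *Bnip3*, which serves the removal of mitochondria, was at 35.7 and 50.9 CPM, 0.173 and 0.187 of the level in other cells. *Epas1*, a hypoxia factor of vessels, had 0 UMIs. *Bpgm*, which makes the ligand that lowers the oxygen affinity of haemoglobin, had 19 and 13 UMIs. The median ratios of the list were 1.06 and 1.01.

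Of 11 genes of adhesion to macrophages and matrix 1, the integrin chain *Itga4*, was at least 4-fold higher (335 and 302 CPM, 5.80-fold and 7.78-fold) and 5 were at least 4-fold lower. Over all genes 3.13% were higher and 20.9% lower by 4-fold. The other WT cells held 68878 UMIs of this list and the WT members 2911, so the minimum was passed largely through the other cells. *Itga5* had 20 and 12 UMIs, and *Cd36* 3 and 2. Of 8 tested genes of the fetal programme 1, *Hmga1*, a chromatin protein, was at least 4-fold higher (5.07-fold and 7.50-fold) and 3 were at least 4-fold lower. *Lin28b*, an RNA-binding protein of fetal blood cells, had too few UMIs for that count and stood at 56.7 and 47.9 CPM, 11.5-fold and 19.9-fold over other cells.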
